A study of Mus musculus with 24 samples.

Results

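Atf4 and 9 genes known as targets or partners of the amino acid stress response were followed in mouse preleukemic cells with and without Tut4 and Tut7. The members were taken by name: Atf4, Ddit3, Asns, Trib3, Chac1, Psat1, Sesn2, Ddit4, Slc7a11 and Slc7a5. All 10 were found among the 20700 genes of the deposited tables, each with 1 interval of 3′ untranslated region (3′UTR), and all 10 had enough reads to be tested in every comparison. The rule used their names and no measured value, although the names were chosen with earlier results of these data known. The cells were c-Kit-enriched fetal liver cells of C57BL/6 embryos, transformed with retroviral Meis1 and Hoxa9 and grown with SCF, IL-6 and IL-3. Control cells were Tut4 fl/fl; Tut7 fl/fl without Vav-iCre, and the Tut4/7 Vav-iCre cDKO cells (cDKO) carried the same floxed alleles with Vav-iCre, which recombines in the hematopoietic system. RNA was labelled with 2.9 µM 4-thiouridine (4SU) for 12 h, the medium was changed to medium without 4SU, and cells were collected after 0, 60, 180 and 540 min of this chase. With 3 replicates for each genotype and time, 24 libraries were read by SLAM-seq, in which alkylated 4SU appears as C in place of T. The number of reads in a 3′UTR is taken here as the level of a transcript, and the share of covered T positions read as C measures how much of it dates from the labelling period. The libraries were made from RNA 3′ ends, and whether the tails of the RNAs affect the read numbers was not tested. For its bulk RNA-seq the paper used rRNA depletion to avoid effects of tail length or modification. Each chase time is a batch of its own in the labels, so time and batch cannot be told apart, whereas the genotypes were compared within each batch.

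When amino acids run short, uncharged tRNAs activate a kinase of the translation factor eIF2, general protein synthesis slows, and the mRNA of the bZIP factor Atf4 is translated more. Atf4 pairs with C/EBP proteins on composite elements in the promoters of genes for amino acid synthesis, amino acid uptake and tRNA charging, and it also induces Ddit3, Trib3 and Chac1, which belong to later or negative arms of the response. Asparaginase, a drug used against leukemia, removes the amino acid that Asns makes. Tut4 and Tut7 are terminal uridylyltransferases, whose U tails mark RNAs for decay.

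Composite elements were looked for in the RefSeq promoter windows (GRCm38.p6, the build of the deposited intervals) that reach from 250 bases before to 50 bases after each transcript start, because this is the letter pattern through which Atf4 is known to reach its targets. The only pattern searched was TGATGNAA, on both strands. Windows were found for 9 members and not for Slc7a5, and 4 members held a match, compared with 1219 of 27025 genes (4.51%) and 3.97% of all windows. The matches are shown with 11 bases on each side, in the direction of transcription, with the matching letters in capitals.
Chac1, chr2:119351038-119351067, plus strand: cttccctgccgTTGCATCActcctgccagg
Trib3, chr2:152344028-152344057, minus strand: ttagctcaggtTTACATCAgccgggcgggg
Slc7a11, chr3:50443661-50443690, minus strand: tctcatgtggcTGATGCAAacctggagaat
Slc7a11, chr3:50443642-50443671, minus strand: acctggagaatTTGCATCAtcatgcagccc
Asns, chr6:7693214-7693243, minus strand: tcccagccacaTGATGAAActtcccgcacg
Slc7a11 held 2 matches in opposite orientations, and the runs printed for them share 11 bases. Atf4, Ddit3, Psat1, Sesn2 and Ddit4 held none in these windows. A match is a run of letters and was not tested for binding here.

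The libraries held between 4369984 and 7025397 reads in 3′UTRs. Levels are given as CPM, the reads of a gene scaled to the 3′UTR reads of its library. The Tut4 3′UTR was read at 68.3 to 105 CPM in the control libraries and at 17.8 to 40.1 CPM in cDKO, and Tut7 at 34.7 to 66.2 CPM and 16.7 to 33.4 CPM, so the genotypes did not overlap for either gene although reads remained. The cell populations also differed by lineage markers. The summed level of 6 erythroid genes was 0.372 to 3.08 CPM in control, where Hbb-bs, Hba-a2 and Epor had no read, and 1311 to 2096 CPM in cDKO, where only Epor had none. For 6 neutrophil genes the sums were 4434 to 5155 CPM and 343 to 1266 CPM (Ltf without a read in cDKO), for 6 mast cell or basophil genes 15.8 to 34.6 CPM (Cpa3, Prss34 and Fcer1a without a read) and 132 to 247 CPM (Fcer1a without one), and for 4 macrophage genes 51.5 to 102 CPM and 181 to 305 CPM. The macrophage genes went both ways, with Adgre1 higher and Csf1r lower in cDKO at all 4 times. Meis1 had no 3′UTR read in control, and the sum of Meis1 and Hoxa9 was 1950 to 2807 CPM in control and 3386 to 6561 CPM in cDKO. Each of these summed levels differed between the genotypes without overlap, and the part of the markers in the genotype differences of the 10 genes was not tested. In such bulk samples a different share of cells of a type and a different amount of RNA per cell cannot be told apart.

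The first question was whether the amino acid stress genes differed between cDKO and control. Psat1 was about 2 times as abundant in cDKO at all 4 times, Trib3 was higher at 0 and 180 min, Slc7a5 at 60 min and Asns at 540 min, and no member was lower in cDKO. Atf4 itself passed the test at no time. Same-numbered cDKO libraries deviated together across the chase times (correlations from 0.245 to 0.663), so the 4 comparisons are not independent of each other. By edgeR's quasi-likelihood test with Benjamini-Hochberg adjustment over all genes tested, 2 of the 10 members passed at each time, while 13.4% of all tested genes passed at 0 min, 20.2% at 60 min, 18.9% at 180 min and 19.3% at 540 min. The median log2 difference of the members was 0.16, 0.30, 0.38 and 0.18 at the 4 times, beside 0.01, 0.00, 0.01 and 0.00 over all genes. Counted by levels alone, the 3 cDKO libraries lay above the 3 control libraries without overlap for 4 members at 0 min, 4 at 60 min, 4 at 180 min and 5 at 540 min, beside 15.4%, 20.5%, 19.6% and 18.2% of all tested genes, and no member lay below.

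**Figure D1:**
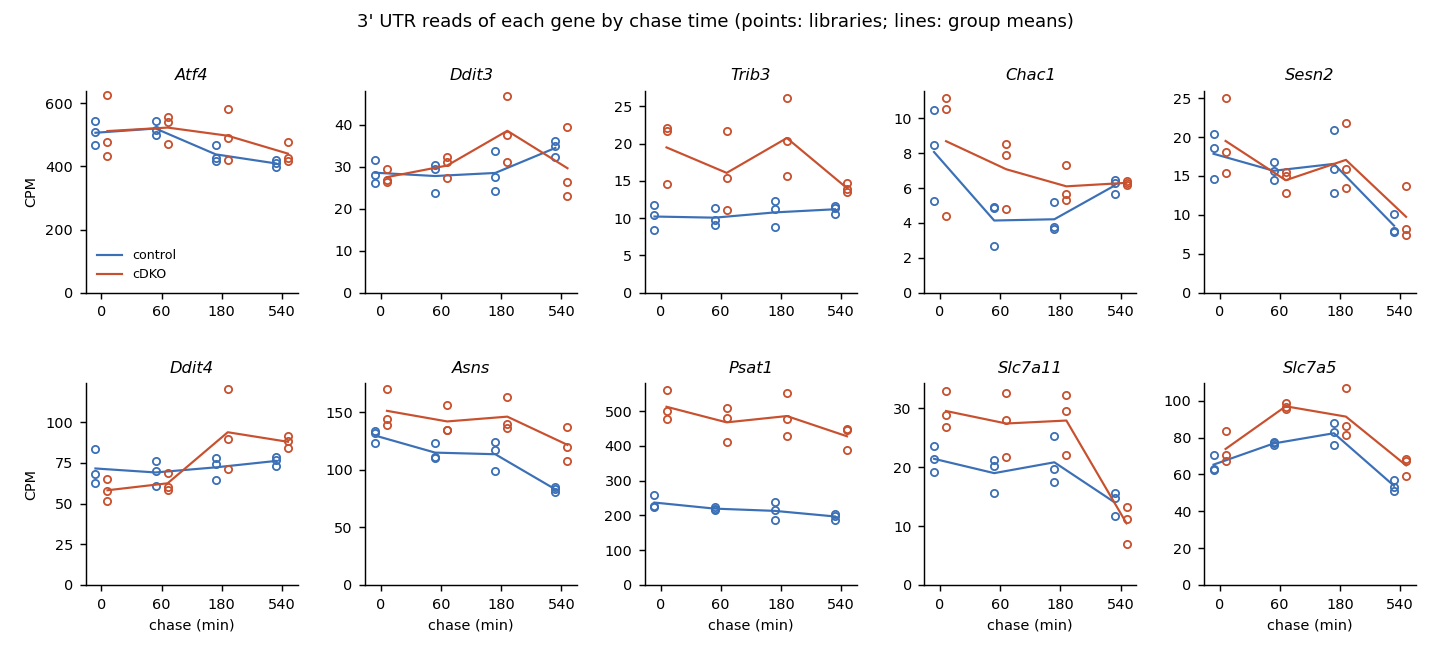
Reads in the 3′UTR of each of the 10 genes in CPM (vertical axes, from 0) at 0, 60, 180 and 540 min of chase (horizontal axes, equally spaced). Open points are libraries, 3 for each genotype and time, and lines join group means; for Psat1 every cDKO library lies above every control library, and Slc7a11 and Sesn2 are at their lowest at 540 min in both genotypes.

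Among the regulators, Atf4, the bZIP factor that heads the response, was read through a 3′UTR interval of only 85 bases at chr15:80257461-80257545, plus strand, in mm10, the build of all intervals given here. At 0 min the control libraries held 543, 469 and 508 CPM and the cDKO libraries 477, 627 and 431 CPM. The genotypes overlapped at 0 min, as they did at the other 3 times. Its log2 difference between cDKO and control was 0.03 ± 0.15 (SE) at 0 min, -0.01 ± 0.08 at 60 min, 0.16 ± 0.11 at 180 min and 0.10 ± 0.07 at 540 min (edgeR adjusted p = 0.918, 0.930, 0.355 and 0.389). Without cDKO replicate 3 the 180 min difference of Atf4 passed (edgeR adjusted p = 0.0333). No other of the 12 alternatives at 180 min passed, with adjusted p up to 0.897 in edgeR. Ddit3 (3′UTR at chr10:127296092-127296288, plus strand) encodes the C/EBP-like factor Chop. It ranged from 23.7 to 36.3 CPM in control and from 23.2 to 46.9 CPM in cDKO and also overlapped at all times. Its largest difference between genotypes was 0.42 ± 0.19 on the log2 scale, at 180 min (edgeR adjusted p = 0.163).

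Trib3 (3′UTR at chr2:152337425-152338206, minus strand) encodes a pseudokinase that binds Atf4 and dampens the response. At 0 min it was read at 10.5, 8.48 and 11.7 CPM in control and at 14.6, 22.1 and 21.7 CPM in cDKO. The genotypes did not overlap, and the difference was 1.93-fold, or 0.95 ± 0.25 on the log2 scale (edgeR adjusted p = 0.0368). At 180 min the control libraries held 11.3, 8.75 and 12.3 CPM and the cDKO libraries 20.4, 15.7 and 26.2 CPM, again without overlap, a difference of 0.93 ± 0.25 (edgeR adjusted p = 0.0270). The values at 60 min (0.66 ± 0.27, adjusted p = 0.123) and 540 min (0.32 ± 0.20, adjusted p = 0.320) missed the threshold. The 0 min call for Trib3 held without cDKO replicate 1 and was lost without any one of the other 5 libraries (edgeR adjusted p from 0.0536 to 0.153), and the 180 min call held only without cDKO replicate 2 (0.0094) and was lost without any one of the other 5 (0.0580 to 0.109). Its 3′UTR had between 44 and 139 reads in a library.

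Chac1 (3′UTR at chr2:119353591-119354326, plus strand) degrades glutathione, Sesn2 (chr4:132492804-132493715, minus strand) restrains mTORC1 when leucine is low, and Ddit4 (chr10:59949675-59950535, minus strand) restrains mTORC1 under stress. These 3 effectors passed at no time in the comparison of genotypes. Chac1 had between 13 and 69 reads in a library, and its log2 differences of 0.13 ± 0.41, 0.74 ± 0.39, 0.51 ± 0.35 and 0.03 ± 0.28 at the 4 times had wide errors. Sesn2 lay between -0.14 ± 0.20 and 0.17 ± 0.31. Ddit4 was at 68.3, 83.6 and 62.8 CPM in control and 51.7, 58.0 and 64.8 CPM in cDKO at 0 min, and at 72.9, 77.1 and 78.6 CPM against 88.3, 91.4 and 84.1 CPM at 540 min. The order of the genotypes was thus the opposite at the last time, when they no longer overlapped, with log2 differences of -0.28 ± 0.15 at 0 min and 0.20 ± 0.09 at 540 min (edgeR adjusted p = 0.283 and 0.184). At 180 min its cDKO libraries lay at 89.7, 71.4 and 120.4 CPM, and without cDKO replicate 2 that difference of Ddit4 passed (edgeR adjusted p = 0.0240). No other of the 12 alternatives at 180 min passed, with adjusted p up to 0.531 in edgeR.

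Psat1, the aminotransferase of serine synthesis (3′UTR at chr19:15905123-15906045, minus strand), showed the largest difference among the called members. At 0 min the control libraries held 224, 228 and 259 CPM and the cDKO libraries 477, 499.8 and 561 CPM. Across all times it ranged from 186 to 259 CPM in control and from 388 to 561 CPM in cDKO, so the lowest cDKO library lay above the highest control library. The log2 differences were 1.13 ± 0.10, 1.07 ± 0.08, 1.17 ± 0.11 and 1.11 ± 0.08 in order of time, or 2.18-, 2.10-, 2.25- and 2.16-fold (edgeR adjusted p = 0.000187, 2.68e-05, 6.44e-05 and 4.18e-05). In each of the 12 alternatives run at each time Psat1 passed, with adjusted p-values up to 0.00388. Asns (3′UTR at chr6:7675171-7675314, minus strand) makes asparagine from aspartate and glutamine. It held 132, 123 and 134 CPM in control and 145, 171 and 139 CPM in cDKO at 0 min. At 540 min it held 83.1, 80.8 and 85.3 CPM in control and 107, 138 and 120.3 CPM in cDKO. The cDKO libraries lay above the control libraries at each of the 4 times, yet only the 540 min difference passed, at 1.46-fold or 0.54 ± 0.11 on the log2 scale (edgeR adjusted p = 0.00711). The earlier differences of Asns were 0.24 ± 0.12, 0.28 ± 0.09 and 0.34 ± 0.11 (adjusted p = 0.235, 0.0580 and 0.0530), and without cDKO replicate 3 those at 60 and 180 min passed (0.0285 and 0.0190). The 180 min difference of Asns also passed by DESeq2 (adjusted p = 0.0367), in one edgeR fit of all 24 libraries (0.0287) and with no filter on low counts (0.0399). Among its 12 alternatives at each time, 1 passed at 60 min and 4 at 180 min, with adjusted p up to 0.187 and 0.213 in edgeR.

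Of the transporters, Slc7a5 (3′UTR at chr8:121881146-121883039, minus strand) is the light chain of a leucine transporter. It held 76.0, 76.9 and 77.5 CPM in control and 95.6, 98.7 and 96.5 CPM in cDKO at 60 min. These tight groups differed by 1.24-fold, or 0.32 ± 0.09 on the log2 scale (edgeR adjusted p = 0.0345). The call was lost without any 1 library except cDKO replicate 3 (adjusted p from 0.0710 to 0.100). At 0, 180 and 540 min the difference of Slc7a5 was 0.19 ± 0.13, 0.13 ± 0.12 and 0.26 ± 0.11, none past the threshold. Slc7a11, the cystine importer (3′UTR at chr3:50364936-50372301, minus strand), held 23.7, 19.2 and 21.4 CPM in control and 28.8, 26.9 and 33.0 CPM in cDKO at 0 min, with no overlap. Its log2 difference was 0.47 ± 0.17 at 0 min, 0.51 ± 0.20 at 60 min, 0.40 ± 0.21 at 180 min and -0.43 ± 0.28 at 540 min (edgeR adjusted p = 0.104, 0.110, 0.221 and 0.330). Among the 12 alternatives at 60 min the adjusted p of Slc7a11 ranged from 0.0274, without cDKO replicate 3, to 0.291. Slc7a11 lies on chromosome 3, where 185 of 483 tested genes were lower in cDKO and 18 higher at 0 min, with a median log2 difference of -0.51 against 0.02 on the other chromosomes. Relative to the median of chromosome 3, the difference of Slc7a11 was 0.99 at 0 min and 0.09 at 540 min, and the part of that shift in its values was not tested.

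**Figure D2:**
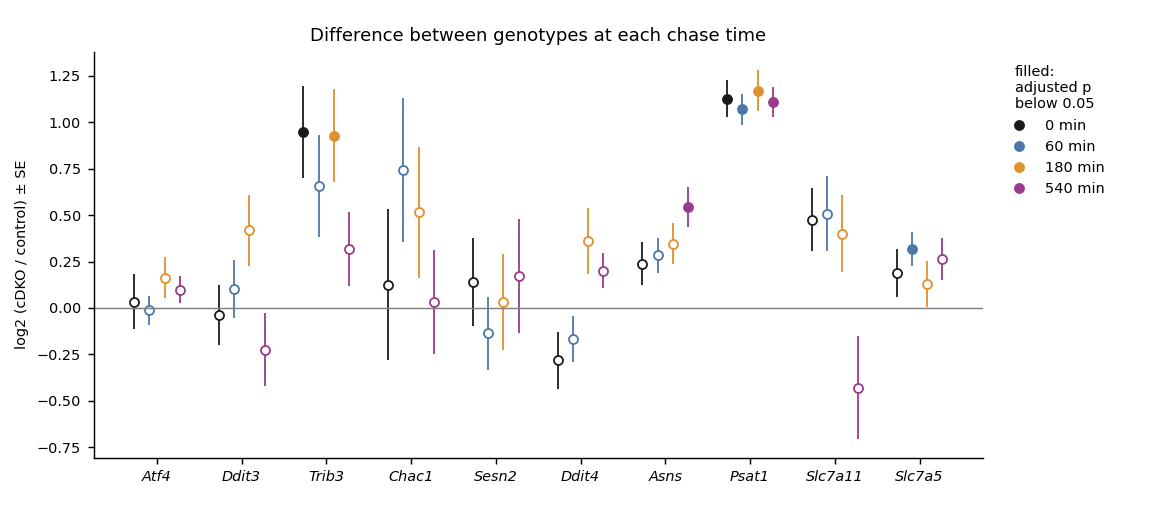
Log2 difference between cDKO and control with its standard error (vertical axis) for each of the 10 genes (horizontal axis) at the 4 chase times (colours). Filled points have an edgeR adjusted p below 0.05: Psat1 at all 4 times, Trib3 at 0 and 180 min, Slc7a5 at 60 min and Asns at 540 min.

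The next question was how the levels moved over the chase, which began with a change of medium. In control, 6 of the 10 members were lower at 540 min than at 0 min and none was higher. Those 6 were Atf4, Sesn2, Asns, Psat1, Slc7a11 and Slc7a5, while Ddit3, Trib3, Chac1 and Ddit4 did not pass. Over all tested genes, 17.7% passed at 540 min by the same edgeR test (8.43% higher and 9.31% lower), and the median log2 change was -0.33 for the members and 0.00 for all genes. No member passed at 60 min, where 2.1% of genes did, and 1 member, Slc7a5, was higher at 180 min, where 6.07% of genes passed. The comparisons of one genotype share their 0 min libraries, so they are not independent of each other.

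In control, Atf4 went from 543, 469 and 508 CPM at 0 min through 469, 428 and 418 CPM at 180 min to 397, 420.4 and 411 CPM at 540 min. The last group lay below the first in every library, a log2 change of -0.35 ± 0.06 (edgeR adjusted p = 0.000266). Sesn2 went from 18.6, 20.3 and 14.6 CPM to 7.96, 7.76 and 10.1 CPM and was the member with the largest fall in control, -1.08 ± 0.23 on the log2 scale (edgeR adjusted p = 0.00120). At 180 min Sesn2 still held 20.9, 15.9 and 12.9 CPM, so its fall lay between 180 and 540 min.

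Asns was the enzyme that fell most in control, from 132, 123 and 134 CPM to 83.1, 80.8 and 85.3 CPM, a change of -0.69 ± 0.09 (edgeR adjusted p = 4.91e-06). Psat1 fell less, from 224, 228 and 259 CPM to 186, 199.8 and 205 CPM, -0.31 ± 0.08 (edgeR adjusted p = 0.00539), and missed the threshold without control replicate 1 (0.0578) or control replicate 3 (0.0667). Slc7a11 went from 23.7, 19.2 and 21.4 CPM to 14.8, 15.7 and 11.7 CPM in control, -0.65 ± 0.20 (edgeR adjusted p = 0.0222), a call lost without control replicate 1 or 3 (0.120 and 0.193). Slc7a5 moved in both directions. It stood at 62.7, 70.6 and 62.6 CPM at 0 min, 88.0, 82.9 and 76.1 CPM at 180 min and 52.9, 51.2 and 57.2 CPM at 540 min. The 180 min libraries all lay above and the 540 min libraries all below those at 0 min, with log2 changes of 0.35 ± 0.10 and -0.32 ± 0.10 (edgeR adjusted p = 0.0337 and 0.0283). Both calls of Slc7a5 were lost without any 1 control replicate (0.0892 to 0.267 at 180 min and 0.0534 to 0.273 at 540 min).

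In cDKO, 1 member passed in the fit without a replicate block, Slc7a11 at 540 min, where 0.942% of all tested genes did. None passed at 60 min, where 0.00961% of genes did, or at 180 min, where 0.0673% did. Slc7a11 fell from 28.8, 26.9 and 33.0 CPM to 13.2, 11.2 and 6.96 CPM in cDKO, with every library at 540 min below every library at 0 min. The change was -1.53 ± 0.25 on the log2 scale, or 0.347 of the level at 0 min (edgeR adjusted p = 0.0144), and it missed the threshold without cDKO replicate 1 (0.341) or cDKO replicate 2 (0.160) and when only the 6 libraries of both times entered the fit (0.100).

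Libraries of cDKO with the same replicate number deviated together from their group means, with correlations across genes from 0.245 to 0.663, so the numbers pair these libraries. With the replicate number as a block, 5 members passed at 540 min in cDKO, beside 7.52% of all genes, and 1 member at 180 min, beside 1.06%. Lower at 540 min were Slc7a11 (-1.56, adjusted p = 8.53e-05), Sesn2 (-1.04, adjusted p = 0.00365), Asns (-0.35, adjusted p = 0.0137) and Psat1 (-0.30, adjusted p = 0.00878) in this blocked edgeR fit. Sesn2 went from 18.1, 15.4 and 25.0 CPM to 8.14, 7.37 and 13.7 CPM in cDKO replicates 1, 2 and 3, so that each number fell. Ddit4 was higher at both times in the blocked fit, by 0.68 at 180 min (edgeR adjusted p = 0.0243) and 0.57 at 540 min (0.0181). Its cDKO libraries held 51.7, 58.0 and 64.8 CPM at 0 min, 89.7, 71.4 and 120.4 CPM at 180 min and 88.3, 91.4 and 84.1 CPM at 540 min, without overlap between the first time and either later one. Without the block, Ddit4 had changes of 0.69 ± 0.16 and 0.56 ± 0.16 (edgeR adjusted p = 0.358 and 0.137). In control, Ddit4 stayed between 61.1 and 83.6 CPM throughout.

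**Figure D3:**
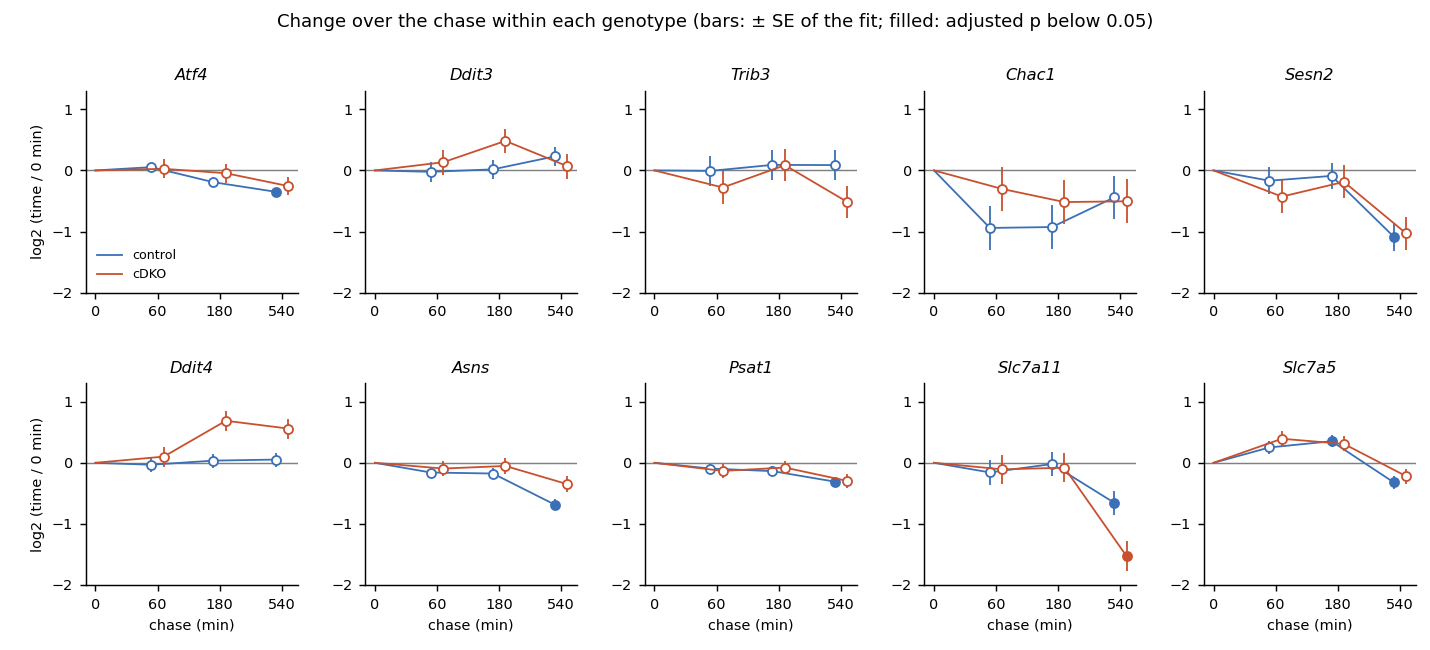
Log2 change from 0 min with the standard error of the fit (vertical axes) at 60, 180 and 540 min of chase (horizontal axes) in control and cDKO, without a replicate block. Filled points have an edgeR adjusted p below 0.05: Slc7a5 at 180 min and 6 genes at 540 min in control, and Slc7a11 at 540 min in cDKO.

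Whether the course differed between genotypes was tested directly, over all 24 libraries. No member passed, and 0% of the 10786 genes tested did in edgeR (573 had an unadjusted p below 0.05, and DESeq2 called 19). The smallest p-values among the members were those of Ddit4 (unadjusted p = 0.0165, edgeR adjusted p = 0.792) and Slc7a11 (0.0249 and 0.838). Ddit4 changed by 0.50 more in cDKO than in control from 0 to 540 min on the log2 scale, and Slc7a11 by -0.88. With the replicate number as a block within genotype these adjusted p-values were 0.224 and 0.297. The calls at 540 min, 6 in control and 1 in cDKO without a block and those in cDKO with it, are thus not shown to differ between genotypes.

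Beyond abundance, the labelled share of each transcript was followed. At 0 min the conversion rate over all 3′UTR reads was 1.64 ± 0.0261% (SD, n = 3) in control and 0.736 ± 0.169% (SD, n = 3) in cDKO, and at 540 min 0.315 ± 0.0134% and 0.187 ± 0.0238%. Label was thus lower at the start in cDKO for the whole library, and cDKO replicate 3 had the lowest rate of its group at each time, so the members were read against 0 min of their own genotype. The genotype difference in the loss of conversions per hour passed for no member, and for 0.131% of all tested genes, 12 of 9169, each with slower loss in cDKO (1575 had an unadjusted p below 0.05). No background rate was subtracted in this test. Such a background would weigh more on the lower cDKO rates, and its part was not tested. The median difference in slope was 0.07 on the log2 scale per hour for the members and 0.07 for all genes. Among the members, Ddit3 and Atf4 came closest, with edgeR adjusted p = 0.197 and 0.240.

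The control rates of some members fell from the first hour, and those of others stayed level to 180 min. Atf4 was the best measured of those that fell early, with at least 50464 covered T positions in a library. Its rates in control were 2.25, 2.20 and 2.19% at 0 min, 1.76, 1.85 and 1.74% at 60 min, 0.978, 1.02 and 0.917% at 180 min and 0.444, 0.445 and 0.526% at 540 min. In cDKO they were 1.16, 1.29 and 0.931% at 0 min and 0.352, 0.404 and 0.365% at 540 min. A single exponential from the 0 min mean gave Atf4 a half-life of 184 min in control (184 ± 9.96 min, SD over fits by replicate number) and 292 min in cDKO (297 ± 32.8 min), where the medians of the 3700 genes that passed the filters were 224.5 and 251.5 min. Over those genes the half-life was longer in cDKO for 68.7%, with a median log2 ratio of 0.19, and for Atf4 the log2 ratio was 0.67. No background was subtracted in these fits. The rate of short-lived genes at 540 min in cDKO, taken as a background, was 0.0761%. Its part in the longer half-lives was not tested over all genes. With it subtracted, Atf4 had 169.8 min in control and 257 min in cDKO. The log2 ratio is a description, and the slope test for Atf4 gave a difference of 0.07 ± 0.03 per hour (unadjusted p = 0.0291, edgeR adjusted p = 0.240). In control the numbers are not shown to pair the libraries, so an SD over fits by number there may not be a spread over replicates followed through the chase.

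**Figure D4:**
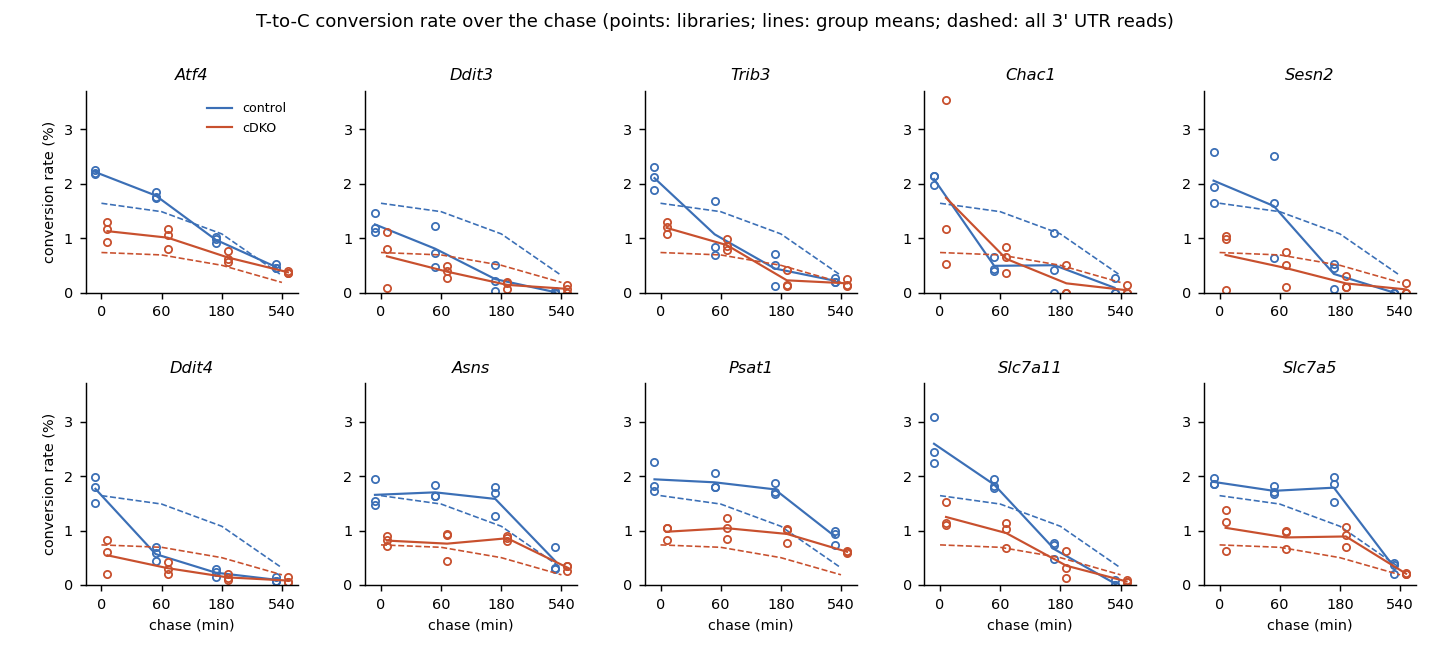
T-to-C conversion rate in percent (vertical axes) of each gene at 0, 60, 180 and 540 min of chase (horizontal axes). Open points are libraries, solid lines join group means and dashed lines show the rate over all 3′UTR reads. Ddit4 and Chac1 in control drop most between 0 and 60 min, and Asns, Psat1 and Slc7a5 stay near their 0 min rate until 180 min. The control rates of Chac1 at 60 min rest on 2, 3 and 2 conversions.

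The other members with an early fall lost label faster in control. Ddit4 fell in control from 1.51, 1.80 and 1.99% at 0 min to 0.434, 0.691 and 0.579% at 60 min, while its level in CPM hardly moved, and its fitted half-life was 40.0 min, or 146 min with a free intercept. Slc7a11 fell from 3.09, 2.24 and 2.45% to 0.726, 0.477 and 0.767% at 180 min in control and from 1.52, 1.10 and 1.13% to 0.621, 0.317 and 0.123% in cDKO, with half-lives of 100.4 and 114 min. For Trib3 the half-lives were 70.5 min in control and 98.2 min in cDKO (SD over replicate numbers 70.1 and 21.2 min), or 185 and 196 min with a free intercept, and for Chac1 and Ddit3 they were 33.7 and 84.2 min in control. The control rates of Chac1 at 60 min came from only 2, 3 and 2 conversions, and its SD over replicate numbers was 43.2 min. Sesn2 had a half-life of 94.5 min in control, and at 540 min it had 0 conversions in 2048 covered T positions over the 3 libraries, which allows a rate of up to 0.146%. In cDKO, replicate 3 held far less label at 0 min for Ddit3 (0.0824%), Sesn2 (0.0560%) and Ddit4 (0.195%), against 0.614 to 1.11% in replicates 1 and 2. The 0 min values of these genes thus varied by more than the filter allows, and their cDKO half-lives of 80.0, 94.6 and 86.2 min rest on unequal libraries. For Chac1 replicate 3 was instead the highest at 0 min in cDKO (0.519, 1.17 and 3.53%), from 12 conversions in 340 covered T positions. Its cDKO half-life of 42.5 min rests on such sparse and unequal libraries.

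Asns, Psat1 and Slc7a5 kept their label longest. Asns had 1.47, 1.95 and 1.55% at 0 min in control, 1.69, 1.79 and 1.26% at 180 min and 0.318, 0.698 and 0.292% at 540 min. In cDKO its rates were 0.722, 0.895 and 0.827%, then 0.866, 0.894 and 0.814%, then 0.350, 0.348 and 0.261% at the same times. The groups at 0 and 180 min overlapped in both genotypes, whereas the rate over all 3′UTR reads had fallen to 1.08 ± 0.0359% and 0.502 ± 0.101% at 180 min. Psat1 still held 0.942, 0.996 and 0.735% in control and 0.613, 0.596 and 0.620% in cDKO at 540 min, 2.83 and 3.30 times the library-wide rate, and the fit gave Psat1 half-lives of 572 and 956 min (control, cDKO), above those of 92.4% and 93.9% of the genes. The fits for Asns gave 428 and 572 min and those for Slc7a5 352 and 319 min, the last from libraries that varied at 0 min by more than the filter allows (1.16, 1.37 and 0.619%). A single exponential describes these level-then-falling courses poorly: without the 540 min libraries the fit gave 3845 min for Asns, 1269 min for Psat1 and 1552 min for Slc7a5 in control.

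Genes of the same pathway outside the 10 were read from wider lists, of which 63 of 64 genes were found. Over all tested genes, 6.7%, 9.97%, 9.08% and 8.88% were higher and 6.71%, 10.2%, 9.83% and 10.4% lower in cDKO at 0, 60, 180 and 540 min, and the counts below are to be read beside these shares. Among 8 subunits and kinases around eIF2, none differed between genotypes at 0 or 180 min and 1, Eif2s1, was higher in cDKO at 60 and 540 min. Of the 5 tested bZIP factors and co-regulators beside Atf4, Nupr1, a stress-induced chromatin protein, was higher in cDKO at all 4 times (1.47 ± 0.19 at 0 min), and Cebpb was lower at all 4 (-1.19 ± 0.16 at 0 min). Cebpg, a dimer partner of Atf4, was higher at 60 and 180 min (0.67 ± 0.11 and 0.47 ± 0.11), and Atf5 lower at 60, 180 and 540 min. In the serine and one-carbon list, which continues the pathway of Psat1, Mthfd2 was higher in cDKO at all 4 times (0.72 ± 0.12, 0.62 ± 0.08, 0.83 ± 0.07 and 0.59 ± 0.07), and Shmt2 was higher at 60, 180 and 540 min. Phgdh, the enzyme just before Psat1, was lower in cDKO at 60 min (-0.49 ± 0.08) and 540 min (-0.27 ± 0.07). The list thus held calls in both directions, 3 higher and 2 lower of 9 tested at 60 min, where 9.97% and 10.2% of all genes were. Calls in these lists, that of Phgdh among them, take no account of chromosome. On chromosome 3 the median log2 difference of all tested genes was -0.48 at 60 min and -0.52 at 540 min. The part of this shift in the listed genes was not tested.

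Slc3a2, the heavy chain that pairs with both Slc7a5 and Slc7a11, was higher in cDKO at all 4 times (0.62 ± 0.13, 0.35 ± 0.06, 0.70 ± 0.07 and 0.58 ± 0.06). Of the transporters tested, 1 of 6 was higher at 0 min, 3 of 6 at 60 and 180 min and 3 of 7 at 540 min, beside 6.7%, 9.97%, 9.08% and 8.88% of all genes, and none was lower. Of the 12 cytosolic aminoacyl-tRNA synthetases, Lars was higher at all 4 times, Tars at 0, 60 and 180 min and Nars at 540 min, and Sars was lower at 60, 180 and 540 min. The calls of Sars also take no account of the shift of chromosome 3, with medians of -0.48, -0.52 and -0.52 at 60, 180 and 540 min. Among 7 other reported Atf4 targets, Eif4ebp1, an inhibitor of cap-dependent translation, was higher in cDKO at all 4 times (0.46 ± 0.11 at 0 min). Vldlr had 69.5 to 318 CPM in cDKO against 0 to 3.38 CPM in control, and Gdf15 had 2.61 to 5.84 CPM in control against 0 to 0.714 CPM in cDKO. The list of the Atf6 and Xbp1 branches of the unfolded protein response had calls in both directions in cDKO, with Xbp1 lower at all 4 times (-0.59 ± 0.11 at 0 min) and Hsp90b1 higher at 60 and 540 min.

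Over the chase in control, 7 of the 12 synthetases were lower at 540 min and none higher, where 9.31% of all genes were lower and 8.43% higher. Their median log2 change was -0.29, beside -0.33 for the 10 members. Eprs fell most among the 4 with the smallest adjusted p (-0.68 ± 0.12), beside Wars (-0.51 ± 0.10), Yars (-0.41 ± 0.10) and Nars (-0.29 ± 0.06). Mthfd2 was lower at 180 min (-0.36 ± 0.07) and 540 min (-0.64 ± 0.07) in control and at 540 min in cDKO (-0.74 ± 0.10). Slc7a1 and Slc1a5 were lower at 540 min in control (-0.61 ± 0.07 and -0.43 ± 0.08), and Eif4ebp1 was lower as well (-0.45 ± 0.08). Slc38a2, an importer of small neutral amino acids, was already lower at 60 min (-0.61 ± 0.07), when Slc3a2 was higher (0.35 ± 0.07). In control the Atf6 and Xbp1 list had 3 of 12 genes higher and 0 lower at 60 min, beside 0.988% and 1.11% of all genes. At 180 min it had 1 higher and 3 lower, beside 3.29% and 2.77%, and at 540 min 2 higher and 3 lower. In cDKO, Aars and Mthfd2 of these lists passed without the replicate block, both lower at 540 min. With the block, 6 of the 59 tested were lower at 540 min and none higher, beside 4.39% and 3.13% of all genes, and none passed at 60 or 180 min. These were Mthfd2, Slc7a1, Aars, Yars, Tars and Eif4ebp1, by -0.73, -0.45, -0.48, -0.42, -0.33 and -0.37 on the log2 scale (edgeR adjusted p from 2.34e-05 to 0.0294).

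With the genotype means removed, Asns, Sesn2, Psat1 and Slc7a11 followed the mean of the other members most closely over the 24 libraries (r = 0.65, 0.62, 0.60 and 0.57). Atf4, Slc7a5 and Trib3 did so less (0.34, 0.33 and 0.30), and Ddit3, Chac1 and Ddit4 did not (-0.09, -0.11 and -0.31). The genes outside the list most like the mean profile of the 10 were Tuba1b, Dnlz, Dph3, Hint1 and Etf1, with r from 0.82 to 0.83. These correlations describe libraries that share chase times and batches.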

How the data were processed

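SLAM-seq was performed on 24 libraries, with groups and replicate numbers from the labels. The methods call the replicates biological. QuantSeq FWD 3′-end libraries were sequenced in one pool, and the authors ran SlamDunk 0.4.3 over 3′UTR intervals of mm10. The build GRCm38 is named in the submitters' processing notes. The deposited tables give whole-number counts of reads, of T-to-C conversions and of T coverage. They also hold CPM scaled by the authors to filtered reads, and the conversion rate, which was deposited as a fraction. Only the counts were tested. CPM and rates were recomputed from them within 3′UTRs.

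Accessions were matched to RefSeq (GRCm38.p6) for 99.2% of 39419 lines. Of overlapping intervals of a gene the longest was kept. Counts were fitted with edgeR 4.0.16 (TMM, filterByExpr, quasi-likelihood) in R 4.3.3, for each chase time between genotypes and over the 12 libraries of each genotype between times, and calls were made at an adjusted p below 0.05. Loss of conversions was fitted per hour with T coverage as offset, for genes with at least 50 conversions in all and T coverage of at least 100 in each library. Half-lives were single exponentials bounded to 1 and 10000 min, with an SD at 0 min below 0.3. DESeq2 1.42.0, other filters, a replicate block and leaving out libraries were alternatives. The edgeR tests and the half-life fit were tested on simulated data. Those data held no effect of the replicate number, so this check does not cover the correlation of same-numbered cDKO libraries. Same-numbered libraries correlated in cDKO (median r 0.587) and not in control (0.034) or between genotypes (-0.02), so the number is read as a pairing only in cDKO. The main tests held no block, in cDKO as elsewhere, and the block was run as an alternative in every comparison. The pairing comes from the data, since the labels do not say what a number shares. The members and all lists were chosen with earlier results of these data known. A listed erythroid marker is not reported here. All members are named, and of each wider list at most the 4 genes with the smallest adjusted p in a comparison. Reads carry no molecular identifiers, so limits from counts cover counting error only.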

Additional observations from a re-analysis of the deposited data

How the results depend on the processing

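No direction of a called difference was reversed in any alternative, and of 168 alternatives to the 16 called differences of members 136 kept the call and 32 lost it. With the replicate number as a block, which pairs nothing between genotypes, 1 member was called between genotypes at 0 min and 1 at 60 min. In cDKO the block gave 1 call at 180 min and 5 at 540 min, as described above, and it changed no other count of members. Over all genes, calls in cDKO at 60, 180 and 540 min numbered 1, 7 and 98, against 27, 110 and 783 with the block, 12, 29 and 300 by DESeq2, 0, 1 and 12 from 6 libraries, and 0, 0 to 3 and 0 to 22 without 1 replicate. For the course 0 genes became 19 by DESeq2, 56 with the block, 1 with no filter and up to 2 without 1 replicate. For the loss of conversions 12 became 284 by DESeq2, 59 with the block, 29 with all lines summed, 23 with the library rate in the offset, 1 without 540 min and 3 to 30 without 1 replicate. In control at 60 min 217 became 373 with no filter, 142 with all lines summed and 346 from 6 libraries, and between genotypes at 0 min 1359 became 2286 in one fit of 24 libraries. Without 1 library the calls between genotypes ranged from 632 to 2214 at 0 min, and fell to as few as 1293, 1156 and 1180 at 60, 180 and 540 min (from 2038, 1908 and 1970), and in control to 56, 171 and 915 (from 217, 626 and 1831). DESeq2 called 1 member at 180 min and 2 at 540 min in cDKO. The fit of 6 libraries called 0 in cDKO at 540 min. In control at 180 min, 2 were called with no filter on low counts and 0 with all lines of a gene summed. Leaving out 1 library or replicate number gave 1 to 2 members called between genotypes at 0 min, 1 to 4 at 60 min, 1 to 3 at 180 min and 2 at 540 min, 0 in control at 180 min, 3 to 5 in control at 540 min and 0 to 1 in cDKO at 540 min. The cause was not tested. The half-lives moved by more than 1 SD in 22 of 133 alternatives. That SD, over fits by replicate number, was 5735 min for Ddit3 and 5751 min for Sesn2 in cDKO, so these could hardly count as moved. For Ddit4 in cDKO it was 149 min, and a half-life of 164 min from conversions scaled to library reads, beside 86.2 min, was not counted. Without the 540 min libraries they were 160.0 and 242 min for Atf4 in control and cDKO, 3845 min for Asns in control and at the upper bound (9999.99 min) in cDKO, 1269 and 7528 min for Psat1, and 1552 and 593 min for Slc7a5. With a free intercept they were 247 and 343 min for Atf4, 185 and 196 min for Trib3 and, in control, 248 min for Asns, 146 min for Ddit4 and 202 min for Slc7a5. With the background of short-lived genes subtracted Atf4 had 169.8 and 257 min and Ddit4 35.4 min in control. From conversions scaled to library reads Atf4 had 164 min, Asns 309.7 min and Slc7a5 448 min in control and Psat1 663 min in cDKO. Depth limits Chac1, Sesn2 and Trib3 most. Members had 0 conversions in 17 values, spread over 9 libraries, which allows rates of up to 0.0614 to 0.625%. The block for the wider lists in cDKO was chosen after seeing the data.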
